A study of Mus musculus with 110 samples.

Results

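Oxidative phosphorylation is carried out by complexes I to V of the mitochondrial inner membrane, and most of their subunits are encoded by nuclear genes. The members described here are the rows of the authors' count table whose symbols begin with Ndufa, Ndufb, Ndufc, Ndufs, Ndufv, Uqcr or Atp5, are Sdha, Sdhb, Sdhc or Sdhd, or begin with Cox followed by a digit from 4 to 8 and a, b or c, without pseudogene rows ending in -ps. They number 90 of the 24056 gene rows used. The rule used names and no measured value. By symbol, 38 belonged to complex I, 7 were Ndufaf assembly factors of complex I, 4 belonged to complex II, 8 to complex III, 16 to complex IV and 17 to complex V. Ndufa4 was kept under complex I by its symbol, although its product is a subunit of complex IV. Atp5s and Atp5sl met the rule but are not subunits of the ATP synthase. The table held 0 mitochondrially encoded rows, so the subunits made inside mitochondria were not analysed here.

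The series holds 110 mouse RNA-seq libraries from a study that lowered mutant huntingtin in astrocytes or in neurons with zinc-finger protein (ZFP) repressors. In the RiboTag method, ribosomes of a chosen cell type carry an HA tag, and RNA bound to them is pulled down (IP), while Input is RNA taken without the pull-down. There were 4 conditions. RZ was R6/2 with an adeno-associated virus (AAV) for the ZFP, RD was R6/2 with the Delta control AAV, NZ was NCAR with the ZFP AAV, and ND was NCAR with the Delta AAV. The strain label is R6/2 for all 110 libraries, the NCAR ones included. R6/2 mice carry the first exon of human HTT with an expanded CAG repeat, so they model an HTT fragment and not the full-length protein. Cell-type-specific AAVs were used per the labels. The sets are labelled MG (astrocytes, IP alone), n_ZFP_a_Rpl (astrocytes, IP and Input), hSyn (neurons, IP and Input) and n_ZFP_n_Rpl (neurons, IP and Input). The tissue, age, promoters, tagged ribosomal protein, meaning of NCAR and of the set names, and the cell type that carried the ZFP in each set are not given in these sources. Each MG condition and each n_ZFP_n_Rpl condition and fraction had 4 libraries, the n_ZFP_a_Rpl fractions had 4 libraries per condition except 3 for RD, and the hSyn fractions had 4 RZ, 3 RD, 4 NZ and 5 ND libraries. The labels do not say whether replicates are separate animals, so p-values measure the spread between these samples, which may be technical.

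Electrons from NADH enter the respiratory chain at complex I and those from succinate at complex II, and both reach complex III through ubiquinone. Complex IV passes them to oxygen, and complex V, the ATP synthase, uses the proton gradient built by complexes I, III and IV to make ATP. Neurons depend heavily on this route, while astrocytes also rely on glycolysis. Several complex IV subunits exist as tissue isoforms, of which Cox6a2, Cox7a1 and Cox8b are known from heart and skeletal muscle and Cox6b2, Cox7b2 and Cox8c from testis. Nuclear respiratory factor NRF1, the ETS-family factor GABP and the estrogen-related receptor ERRA are known regulators of these genes.

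Promoter sequences are shown for 4 members that the later comparisons turn on: Atp5g1 and Sdha, which were higher in RD in all 4 IPs, and Uqcr11 and Ndufs3, which were lower in 3. They are RefSeq sequences of GRCm38.p6, the assembly that mm10 also denotes, from 240 bases before to 10 after the start site of the RefSeq promoter table, written 5′ to 3′ on the gene's strand. Capitals mark matches, on either strand, to the letters CGCATGCG (NRF1, the same on both strands), CCGGAAG (ETS) or TCAAGGTCA (ERRA); none of the marked matches overlap.
Atp5g1, chr11:96075622-96075871, minus strand: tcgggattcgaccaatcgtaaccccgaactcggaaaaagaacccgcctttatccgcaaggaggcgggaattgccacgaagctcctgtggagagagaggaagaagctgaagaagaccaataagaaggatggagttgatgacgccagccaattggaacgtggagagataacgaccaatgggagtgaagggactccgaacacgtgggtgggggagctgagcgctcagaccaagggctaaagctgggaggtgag
Sdha, chr13:74350231-74350480, minus strand: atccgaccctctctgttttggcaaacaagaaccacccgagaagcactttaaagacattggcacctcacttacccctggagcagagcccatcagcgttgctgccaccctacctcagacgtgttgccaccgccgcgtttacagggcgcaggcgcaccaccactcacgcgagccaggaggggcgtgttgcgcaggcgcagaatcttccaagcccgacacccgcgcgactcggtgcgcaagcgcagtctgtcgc
Uqcr11, chr10:80406812-80407061, minus strand: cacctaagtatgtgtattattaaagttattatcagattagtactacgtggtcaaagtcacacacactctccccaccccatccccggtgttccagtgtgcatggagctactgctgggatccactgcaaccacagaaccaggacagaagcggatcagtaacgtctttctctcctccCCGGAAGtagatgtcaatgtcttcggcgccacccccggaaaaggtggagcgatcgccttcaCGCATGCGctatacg
Ndufs3, chr2:90904712-90904961, minus strand: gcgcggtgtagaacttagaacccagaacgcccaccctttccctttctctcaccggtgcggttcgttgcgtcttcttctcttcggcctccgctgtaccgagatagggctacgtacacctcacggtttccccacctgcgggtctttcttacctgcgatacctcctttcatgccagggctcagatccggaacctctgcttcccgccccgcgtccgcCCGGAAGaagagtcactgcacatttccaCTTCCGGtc
Atp5g1 and Sdha held none of the 3 motifs in this window. Uqcr11 held 1 NRF1 and 1 ETS match, and Ndufs3 held 2 ETS matches, on opposite strands. Of the 90 members, 73 had a promoter in the table. The shares below count genes with a match in the whole window of that table, which is longer at both ends than the part printed. NRF1 letters were in 11 of these members (15.1%), against 2.07% of all 27025 genes with a promoter and 2.77% of the 17491 protein-coding ones. ETS letters were in 17 (23.3%), against 9.93% and 12.9%, and ERRA letters in 2 (2.74%), against 0.466% and 0.377%. Among members higher in RD in at least 1 IP, 1 of 16 promoters held NRF1 and 4 held ETS. Among members lower in at least 1 IP, 6 of 32 held NRF1 and 7 held ETS, and among members called in no IP, 4 of 25 held NRF1 and 6 held ETS. A match is a description of these letters and not a binding site.

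Library totals were 45.1 to 72.6 M counts (M, 1000000) in the MG IP, 44.9 to 57.3 M in the hSyn IP, 42.9 to 50.3 M in the n_ZFP_a_Rpl IP and 34.8 to 46.0 M in the n_ZFP_n_Rpl IP, and 26.4 to 44.2 M across the Inputs. No library was a copy of another. Levels below are CPM, counts per 1000000 counts of a library after TMM scaling, differences are log2 fold changes with their standard error, and a call is an adjusted p under 0.05 over all genes tested by edgeR's quasi-likelihood test. Levels of different genes are not compared, since CPM is not per length. Astrocyte identity was visible in the n_ZFP_a_Rpl IP, where 16 of 16 astrocyte markers were higher than in Input (median log2 1.81). Pan-neuronal markers were also higher there for 11 of 12 (median 0.51). Pan-neuronal markers were higher for 12 of 12 in both neuron IPs, with medians of 0.58 in hSyn and 0.60 in n_ZFP_n_Rpl.

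Some members carry little or uncertain signal. Cox8c, the testis isoform of subunit VIII, had 0 counts in 103 of 110 libraries and was tested in no comparison. Atp5g2, Atp5l, Cox7c and Ndufs5 had very low counts, and whether reads were shared with near-identical copies was not tested. Ndufa4l2, Cox7b2 and Cox8b were also near the lower limit of the count filter.

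The MG libraries fell into separate groups. The totals of 6 libraries (RZ 2, 3 and 4, and NZ 3, 4 and 5) were 59.7 to 72.6 M counts, and those of the other 10 (RZ 1, NZ 2 and every RD and ND library) were 45.1 to 57.0 M. In 28 of 89 tested members (31.5%) the levels of these sets of libraries did not overlap, against 6.67% of 15342 genes tested. The 6 libraries were higher for 21 of the members and lower for 7, which were Cox5b, Cox6c, Ndufa8, Ndufb10, Ndufb3, Ndufs6 and Uqcrb. Atp5e, the epsilon subunit of the ATP synthase, had 14.6, 29.0, 28.5 and 30.6 CPM in RZ 1 to 4, 14.9 to 16.5 CPM in RD, 18.6, 27.99, 30.1 and 29.9 CPM in NZ 2 to 5, and 14.8 to 15.5 CPM in ND. Uqcrb, a small complex III subunit, ran the other way, with 58.5, 32.2, 36.6 and 35.8 CPM in RZ, 56.1 to 65.5 CPM in RD, 62.0, 36.1, 37.6 and 34.2 CPM in NZ, and 49.7 to 63.3 CPM in ND. Each of the 6 libraries had received the ZFP, so among them ZFP and library total cannot be told apart, and no label names a batch.

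**Figure D1:**
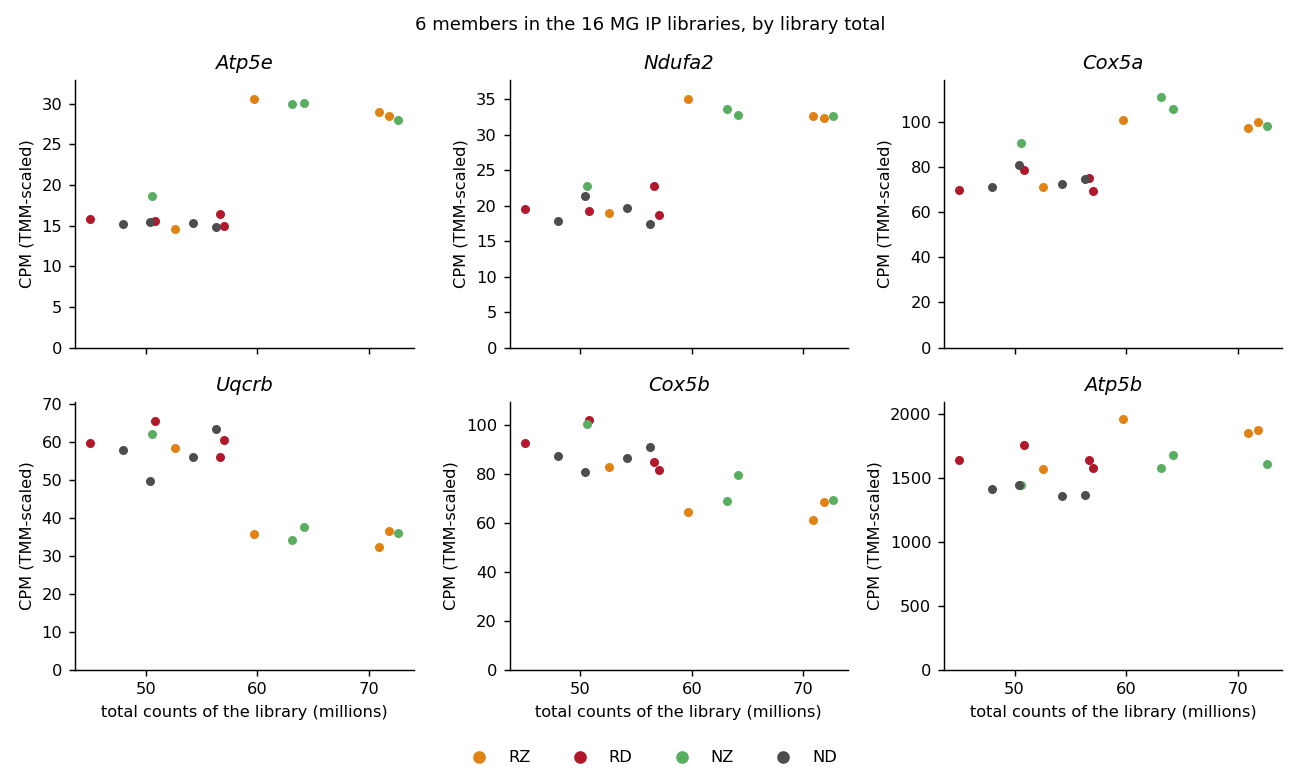
Level of 6 members (CPM, vertical) against library total (M counts, horizontal) in the 16 MG IP libraries, 1 point per library, coloured by condition. The 6 libraries from 59.7 M up sit apart for Atp5e, Ndufa2, Cox5a, Uqcrb and Cox5b, while RZ 1 and NZ 2 sit with RD and ND in most panels.

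The first comparison asked how ribosome-bound RNA of each cell type differs from tissue RNA in these genes. In the n_ZFP_n_Rpl neuron IP, 78 of 88 tested members were higher than in Input and 5 lower (94.3% called, against 83.3% of all genes, 42.6% higher and 40.7% lower), with a median log2 difference of 0.50 (all genes 0.02). In the hSyn neuron IP 70 of 89 were higher and 7 lower (86.5%, against 78.7% of all genes, 39.2% higher and 39.5% lower), with a median of 0.24 (all genes -0.01). In the n_ZFP_a_Rpl astrocyte IP 63 of 89 were higher and 17 lower (89.9%, against 84.9% of all genes, 42.1% higher and 42.8% lower), with a median of 0.22 (all genes -0.01). The median thus lay above that of all genes in each set, and the astrocyte IP held the most lowered members.

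By complex, all 4 complex II subunits were higher in each of the 3 IPs. Of the 8 complex III members, 8 were higher in hSyn, 7 in n_ZFP_a_Rpl and 8 in n_ZFP_n_Rpl, with none lower. Complex I members were higher for 34 of 38 in hSyn, 29 in n_ZFP_a_Rpl and 36 of 37 in n_ZFP_n_Rpl. Complex IV had the lowest median of the subunit complexes in each IP, at 0.07 in hSyn, 0.11 in n_ZFP_a_Rpl and 0.26 in n_ZFP_n_Rpl. The Ndufaf assembly factors were split in the astrocyte IP, where 3 were higher and 4 lower.

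Levels set against Input were scaled over both fractions of a set together. They differ from the levels of the same libraries elsewhere, which were scaled within each fraction. Sdha, the flavoprotein subunit of succinate dehydrogenase, shows the size of the gain. In n_ZFP_a_Rpl its lowest, median and highest levels were 595, 646 and 725 CPM in IP, against 342, 362 and 395 CPM in Input. In n_ZFP_n_Rpl they were 484, 529 and 604 CPM in IP, against 323, 354 and 406 CPM in Input. The IP libraries did not overlap the Input libraries in either set. Uqcrfs1, the Rieske iron-sulfur subunit of complex III, had 116, 142 and 159 CPM in the astrocyte IP, against 67.3, 75.1 and 83.4 CPM in its Input, a log2 difference of 0.91 ± 0.02 (SE). Uqcrc2 (0.90 ± 0.02) and Uqcrc1 (0.88 ± 0.02), the large core proteins of complex III, followed it there, as did Ndufv1 (0.85 ± 0.02), which binds NADH, and Atp5a1 (0.85 ± 0.02), the alpha subunit of the ATP synthase. In the n_ZFP_n_Rpl neuron IP the largest differences among members of at least 5 CPM were Ndufa4 (0.76 ± 0.03), Ndufb2 (0.75 ± 0.04) and Atp5b, the catalytic beta subunit (0.75 ± 0.02). In the hSyn IP they were Ndufa9 (0.52 ± 0.02), Atp5b (0.51 ± 0.03) and Atp5d (0.50), the delta subunit.

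Other members were lower in IP. Cox7a2l, known for its part in joining complexes III and IV into supercomplexes, was the lowest member of at least 5 CPM in all 3 sets, at -0.78 ± 0.03 in n_ZFP_a_Rpl, -0.34 ± 0.03 in n_ZFP_n_Rpl and -0.47 ± 0.08 in hSyn. In n_ZFP_a_Rpl its levels were 47.9 to 58.4 CPM in IP, against 78.7 to 110 CPM in Input, with no overlap. Cox6c and Ndufa1, small subunits of complexes IV and I, were lower in the astrocyte IP and higher in the n_ZFP_n_Rpl neuron IP. Cox6c had 102 to 127 CPM in the astrocyte IP, against 126 to 154 CPM in its Input, and 136 to 173 CPM in the neuron IP, against 107 to 138 CPM in its Input. Ndufa1 had 29.3 to 35.4 CPM in the astrocyte IP, against 36.4 to 45.0 CPM in its Input, and 40.2 to 59.9 CPM in the neuron IP, against 27.1 to 39.9 CPM in its Input. Ndufa4l2, a paralogue of Ndufa4 known as a hypoxia target, had 0.0686 to 0.399 CPM in the astrocyte IP, against 0.854 to 1.43 CPM in its Input (-2.94 ± 0.14). Endothelial and mural markers were lower in that IP by a median log2 of -4.16 and microglial markers by -5.97, and their part in this result was not tested.

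Cox6b2, the testis-type isoform of subunit VIb, was a marked case in astrocytes. It had 8.46, 9.87 and 13.4 CPM (lowest, median, highest) in the astrocyte IP, against 1.31, 2.06 and 3.45 CPM in its Input. In n_ZFP_n_Rpl it had 0.470, 1.72 and 4.38 CPM in IP, against 0.892, 1.40 and 2.67 CPM in Input, and in hSyn 0.703, 2.11 and 3.39 CPM in IP, against 0.943, 1.89 and 2.97 CPM in Input. The astrocyte IP alone of these 3 IPs stood apart from its Input. The common isoform Cox6b1 had 143 to 168 CPM in the astrocyte IP, against 125 to 156 CPM in its Input. Cox7a1, the muscle-type isoform of subunit VIIa, was also higher in the astrocyte IP (1.196 ± 0.113) and was not called in the n_ZFP_n_Rpl neuron IP (-0.11).

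**Figure D2:**
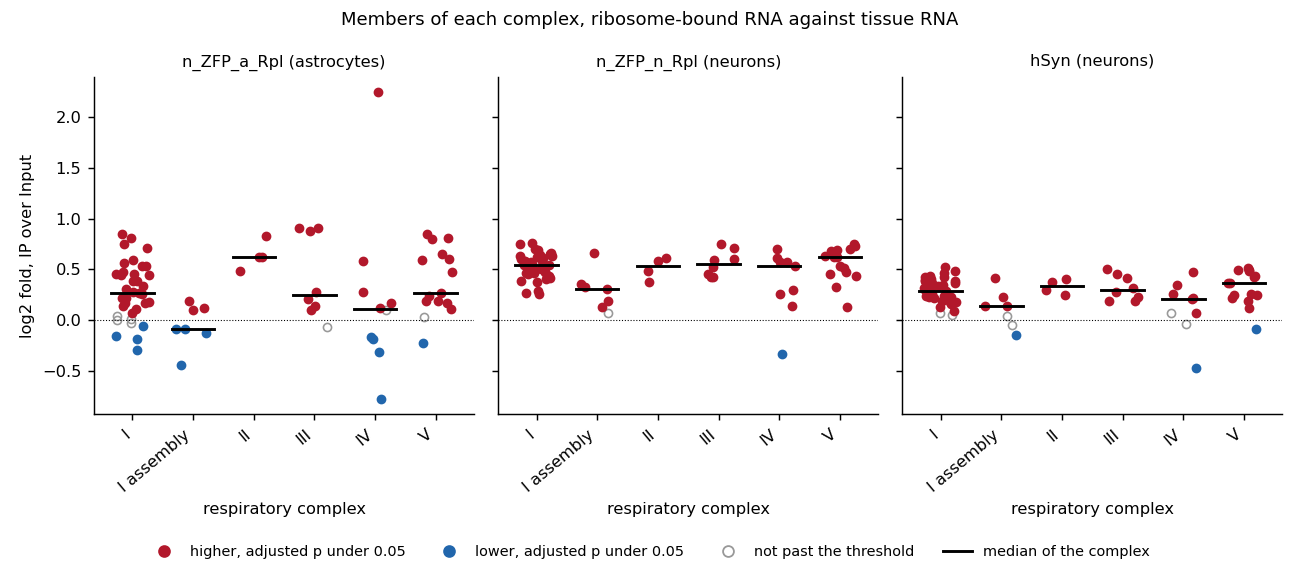
Log2 difference of IP and Input (vertical) by complex (horizontal) for members with a mean of at least 5 CPM, in n_ZFP_a_Rpl, n_ZFP_n_Rpl and hSyn. Each member is 1 point, and called members are marked. In n_ZFP_n_Rpl 77 of 79 drawn members were called higher, in hSyn 70 of 79 and in n_ZFP_a_Rpl 60 of 80, where 13 were called lower.

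The difference of these enrichments between the n_ZFP_n_Rpl neuron set and the n_ZFP_a_Rpl astrocyte set was tested in 1 model. Of 89 members, 62 were more enriched in neurons and 13 in astrocytes (84.3% called, against 67.2% of all genes, 38% higher and 29.3% lower), with a median of 0.25 (all genes 0.06). Each cell type is a set of its own, so set and cell type cannot be told apart, and with ND libraries alone 49 members were called. The largest neuron-side differences among members of at least 5 CPM were Ndufa1 (0.75 ± 0.04, adjusted p = 2.05e-24) and Cox6c (0.60 ± 0.03, adjusted p = 5.44e-22). Atp5g1, 1 of the genes for the c subunit of the ATP synthase ring, differed by 0.43 ± 0.05 (adjusted p = 1.36e-11). On the astrocyte side were Cox6b2 (-2.09 ± 0.19, adjusted p = 1.62e-14), Uqcrfs1 (-0.40 ± 0.03, adjusted p = 5.07e-15), Sdha (-0.26 ± 0.02, adjusted p = 2.89e-15) and Sdhc (-0.26 ± 0.04, adjusted p = 9.23e-08).

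A split of the subunits, chosen after the values were seen and given without a test, sets the core subunits of complex I, the core proteins and Rieske subunit of complex III and the F1 subunits of the ATP synthase against the other subunits of the same complexes. In the astrocyte IP the 7 core subunits of complex I had a median difference from Input of 0.56, against 0.21 for its 29 accessory subunits. The core and Rieske subunits of complex III (3) had 0.90 against 0.14 for its other subunits (5), and the F1 subunits of the ATP synthase (5) had 0.60 against 0.20 for its other subunits (10). In the n_ZFP_n_Rpl neuron IP the same pairs were closer, at 0.63 and 0.50, 0.71 and 0.46, and 0.64 and 0.49. In the hSyn IP they were 0.40 and 0.23, 0.45 and 0.23, and 0.48 and 0.25. The first of each pair was the higher. In the neuron less astrocyte test, 4 of 7 complex I core subunits were more enriched in neurons and 2 in astrocytes, against 25 and 1 of its 29 accessory subunits. For complex III it was 0 and 3 of the 3 core and Rieske subunits, against 5 and 0 of the other 5, and for the ATP synthase 2 and 2 of 5 F1 subunits, against 6 and 1 of the other 10. Outside the members, the cytosolic ribosomal proteins had medians of -0.93 in n_ZFP_a_Rpl, -0.51 in n_ZFP_n_Rpl and -0.82 in hSyn. The mitochondrial ribosomal proteins had 0.23, 0.43 and 0.24. Transcript lengths were not used here, and their part in these differences was not tested.

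The second comparison asked how these genes differ between R6/2 and NCAR, both with the Delta AAV. In the hSyn neuron IP 8 of 88 tested members were higher and 22 lower in RD (34.1% called, against 51% of all genes, 25.4% higher and 25.5% lower). In the n_ZFP_n_Rpl neuron IP 13 of 88 were higher and 15 lower (31.8%, against 51.4%, 25.2% higher and 26.2% lower). In the n_ZFP_a_Rpl astrocyte IP 4 of 88 were higher and 26 lower (34.1%, against 45.3%, 20.6% higher and 24.7% lower), and in the MG astrocyte IP 8 of 89 were higher and 1 lower (10.1%, against 33.5%, 17.4% higher and 16.2% lower). The share called was below that of all genes in each IP. The sizes were small too, since the median absolute log2 difference was 0.14 in hSyn, 0.09 in n_ZFP_n_Rpl, 0.10 in n_ZFP_a_Rpl and 0.09 in MG, against 0.30, 0.27, 0.22 and 0.23 over all genes. Without MG RZ library 1, which enters the fit through the shared spread, 14 members were called in the MG IP.

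In each Input more members were called higher than lower in RD. In n_ZFP_n_Rpl Input 29 of 86 members were higher and 5 lower in RD (39.5%, against 49.8% of all genes, 26.1% higher and 23.7% lower). In hSyn Input 19 of 89 were higher and 5 lower (27%, against 44.1%, 22.5% higher and 21.6% lower), and in n_ZFP_a_Rpl Input 12 of 88 were higher and 6 lower (20.5%, against 49.1%, 24.4% higher and 24.7% lower). Both directions were thus below the shares of all genes in n_ZFP_a_Rpl Input, where the median of the members was -0.03. Single libraries weighed on these counts. Without RD library 2 or 3, 13 or 15 members were called in hSyn Input, without RD library 3 there were 11 in n_ZFP_a_Rpl Input, and without ND library 4 there were 21 in n_ZFP_n_Rpl Input.

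In bulk RNA, fewer cells of a type and less RNA per cell cannot be told apart, and cell markers moved in the same comparison. The striatal projection neuron markers summed to 7191 to 7293 CPM in RD and 18639 to 21539 CPM in ND in the hSyn IP, and to 4365 to 5646 CPM in RD and 11945 to 17947 CPM in ND in the n_ZFP_n_Rpl IP. They also fell in the astrocyte IPs, with sums of 3064 to 4115 CPM in RD and 11319 to 13242 CPM in ND in n_ZFP_a_Rpl. Between 13 and 14 of the 14 tested markers were lower in each IP and Input, against 16.2% to 26.2% of all genes. Their medians were from -1.78 to -1.45, and no listed marker was at 0. Astrocyte markers were lower for 15 of 16 in the hSyn IP, 12 in the n_ZFP_n_Rpl IP, 8 in the n_ZFP_a_Rpl IP and 3 in the MG IP. Over all genes 25.5%, 26.2%, 24.7% and 16.2% were lower in these IPs, so the MG count was near its share. The part of these markers in the members' differences was not tested.

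Of the 87 members tested in all 4 IPs, 33 were called in none (37.9%, against 23.4% of 14728 genes) and 0 in both directions (2.19% of genes). Members were higher in all 4 for 3 (3.45%, against 8.83% of genes), lower in all 4 for 0 (11.2% of genes) and lower in 3 for 10 (11.5%, against 6.27%). Higher in all 4 were Atp5g1, Sdha and Ndufaf1, and Atp5b was higher in 3. Lower in 3 were Ndufa5, Ndufb4, Ndufb9, Ndufb10, Ndufs3 and Ndufs4 of complex I. Uqcr11 of complex III, Cox6a2 of complex IV, and Atp5d and Atp5j of complex V were also lower in 3. For each of these 10 the IP without a call was MG. Their MG differences were below 0 for all but Ndufb9 (0.03), from -0.45 ± 0.23 for Cox6a2 to -0.05 ± 0.07 for Ndufs4. A missing call in MG does not show that a difference was absent. With the library total above 58 M as a block, chosen after the data were seen, 14 members were higher and 3 lower there. The main fit had 8 and 1. Over all genes 42.4% were called with that block, against 33.5% in the main fit. In the Inputs, Atp5b, Atp5g1, Ndufc2, Sdha and Uqcrc2 were higher in all 3, and Uqcr11 was lower in all 3.

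**Figure D3:**
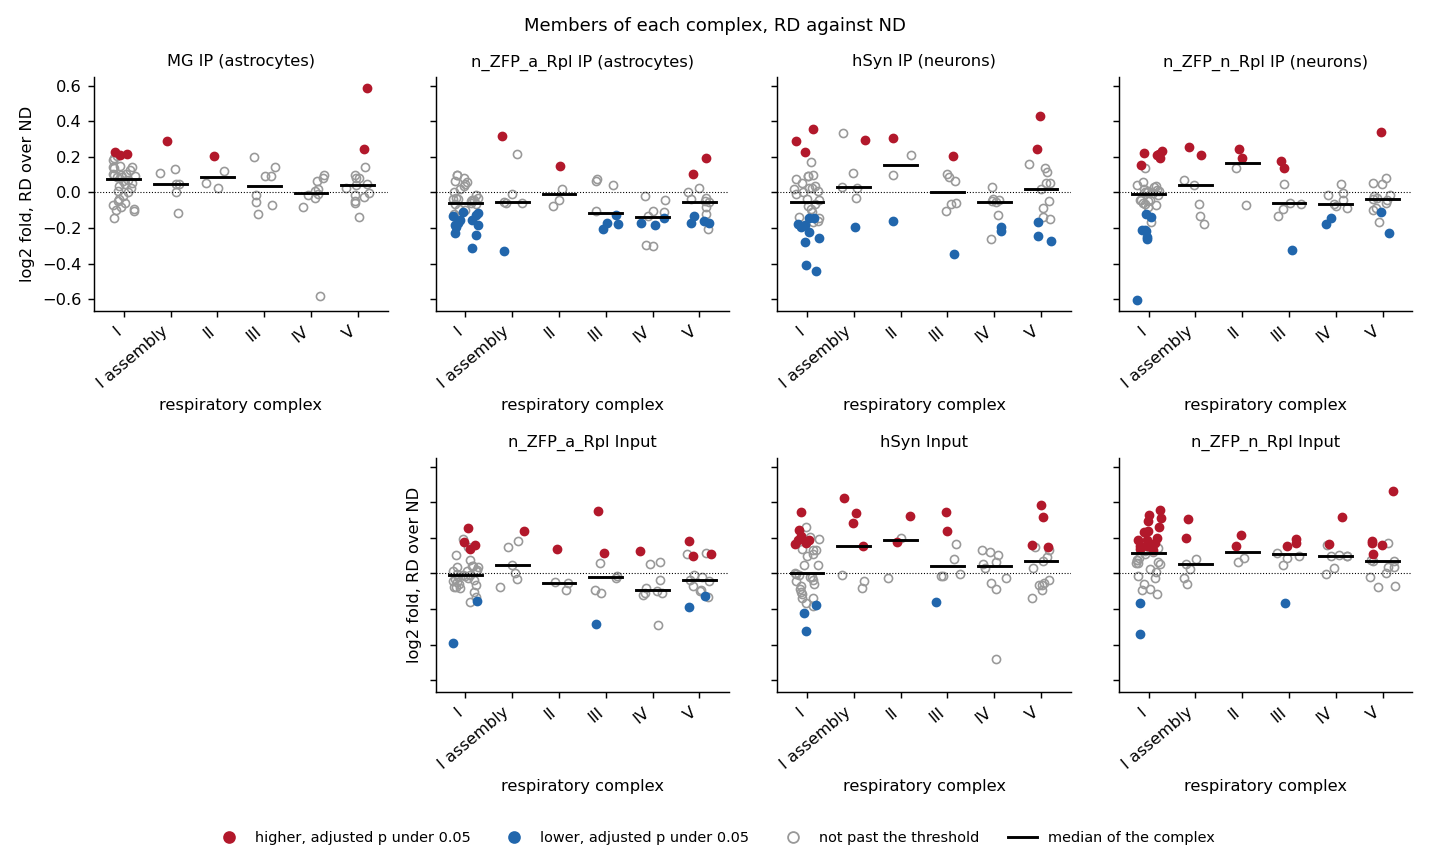
Log2 difference of RD and ND (vertical) by complex (horizontal) for members with a mean of at least 5 CPM in the 4 IPs and 3 Inputs. Each member is 1 point, and called members are marked. The n_ZFP_a_Rpl IP has 4 called higher and 25 lower of 80 drawn, while the n_ZFP_n_Rpl Input has 29 higher and 3 lower of 79.

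Atp5g1 (chromosome 11, 96072793 to 96075694 in GRCm38.p6) encodes the c subunit of the ATP synthase rotor, as do Atp5g2 and Atp5g3. The MG IP had 24.6, 23.6, 24.4 and 29.4 CPM in RD, against 17.2, 17.4, 16.6 and 16.7 CPM in ND (log2 0.59 ± 0.10, adjusted p = 0.00029). The hSyn IP had 34.8, 35.3 and 36.03 CPM in RD, against 27.5, 25.5, 24.6, 24.1 and 29.9 CPM in ND (0.43 ± 0.08, adjusted p = 0.000457). The groups did not overlap in either IP. The n_ZFP_n_Rpl IP had 60.8, 56.7, 55.4 and 59.0 CPM in RD, against 43.0, 44.0, 49.0 and 47.2 CPM in ND (0.34 ± 0.06, adjusted p = 0.00035). The n_ZFP_a_Rpl IP had 39.5, 42.3 and 38.5 CPM in RD, against 35.6, 34.8, 36.2 and 34.0 CPM in ND (0.19 ± 0.07, adjusted p = 0.0265). The n_ZFP_a_Rpl difference, the smallest of the IPs, had an adjusted p of 0.117 without RD library 2, 0.0617 without ND library 4 and 0.053 without ND library 2. In the Inputs Atp5g1 was higher in RD by 0.46 ± 0.07 in n_ZFP_n_Rpl (adjusted p = 3.75e-05), 0.38 ± 0.07 in hSyn (adjusted p = 0.000358) and 0.18 ± 0.07 in n_ZFP_a_Rpl (adjusted p = 0.0261, and above 0.05 without RD 2, RD 3 or ND 3). Atp5g3 was called in no IP in this comparison, with differences from -0.05 to 0.12. In n_ZFP_n_Rpl Input it was higher in RD, with 96.9 to 102.5 CPM, against 83.6 to 93.7 CPM in ND. That call held in all 21 alternatives (adjusted p up to 0.00969). It was also called higher in hSyn Input, where 4 of 21 alternatives ended the call (adjusted p up to 0.0947), and was not called in n_ZFP_a_Rpl Input.

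Other ATP synthase genes divided. Atp5b rose by 0.24 ± 0.07 in the MG IP, 0.24 ± 0.06 in the hSyn IP and 0.11 ± 0.04 in the n_ZFP_a_Rpl IP (adjusted p = 0.0182, 0.00252 and 0.0361), and was not called in the n_ZFP_n_Rpl IP (0.08 ± 0.04). Its call in n_ZFP_a_Rpl ended in 7 of 20 alternatives (adjusted p up to 0.103) and that in MG in 2 of 24 (up to 0.0724). Atp5a1, its partner in the catalytic head, was called in none of the IPs. In hSyn, for instance, it had 1201, 1285 and 1292 CPM in RD, against 1188 to 1293 CPM in ND, so the groups overlapped. Atp5d, part of the central stalk, fell by 0.24 in the hSyn IP, 0.23 in the n_ZFP_n_Rpl IP and 0.17 in the n_ZFP_a_Rpl IP.

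Sdha (chromosome 13, 74322255 to 74350240) serves both complex II and the tricarboxylic acid cycle. Levels in the hSyn IP were 566, 580 and 561 CPM in RD, against 448, 480, 468, 451 and 456 CPM in ND (0.31 ± 0.04, adjusted p = 5.58e-06). Levels in the n_ZFP_n_Rpl IP were 520, 547, 550 and 559 CPM in RD, against 458, 459, 448 and 475 CPM in ND (0.24 ± 0.04, adjusted p = 3.86e-05). Levels in the n_ZFP_a_Rpl IP were 669, 658 and 640 CPM in RD, against 604, 609, 579.7 and 568.1 CPM in ND (0.15 ± 0.04, adjusted p = 0.00483). Every RD library lay above every ND library in these IPs. Levels in the MG IP were 755, 799, 792 and 777 CPM in RD, against 687, 679, 677 and 670 CPM in ND (0.20 ± 0.06, adjusted p = 0.0238), again without overlap. That call had an adjusted p between 0.0517 and 0.0703 without RD library 2 or 3 or ND library 2, 3 or 4. Sdhb, the iron-sulfur subunit, ran the other way in the hSyn IP, with 104, 111 and 113 CPM in RD, against 114 to 131 CPM in ND (-0.16 ± 0.06, adjusted p = 0.0226). The Sdhb call ended in 4 of 21 alternatives, with an adjusted p up to 0.139.

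Complex I holds the most members. They were higher and lower in RD for 3 and 10 of 38 in the hSyn IP and 6 and 8 in the n_ZFP_n_Rpl IP. In the n_ZFP_a_Rpl IP it was 0 and 13 of 37, and in the MG IP 3 and 0. Over all genes the shares were 25.4% and 25.5%, 25.2% and 26.2%, 20.6% and 24.7%, and 17.4% and 16.2%, in that order. Ndufaf1 (chromosome 2, 119655446 to 119662839), an early assembly factor, was higher in all 4. In n_ZFP_a_Rpl IP libraries it had 25.7, 22.7 and 24.6 CPM in RD, against 17.6, 19.2, 21.7 and 19.6 CPM in ND (0.32 ± 0.07, adjusted p = 0.00179). Its difference was 0.29 ± 0.07 in the MG IP (adjusted p = 0.00643), 0.30 ± 0.08 in the hSyn IP (adjusted p = 0.00454) and 0.21 ± 0.05 in the n_ZFP_n_Rpl IP (adjusted p = 0.00414). RD lay above ND without overlap in MG, hSyn and n_ZFP_a_Rpl, while in n_ZFP_n_Rpl the lowest RD library, at 19.4 CPM, was below the highest ND library, at 19.8 CPM. In contrast, Ndufaf5, which modifies a core subunit during assembly, had 20.6, 25.3 and 23.1 CPM in RD of the n_ZFP_a_Rpl IP, against 27.8, 27.4, 30.6 and 29.5 CPM in ND (-0.33 ± 0.08, adjusted p = 0.00231).

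Ndufb4 (chromosome 16, 37647602 to 37654368), an accessory subunit of the membrane arm, fell most among the called complex I members of both neuron IPs. In n_ZFP_n_Rpl IP libraries it had 8.15, 9.40, 8.93 and 9.10 CPM in RD, against 14.4, 14.2, 14.2 and 11.3 CPM in ND (-0.61 ± 0.08, adjusted p = 1.37e-05). In hSyn IP libraries it had 11.96, 11.65 and 12.5 CPM in RD, against 16.5, 16.4, 15.9, 15.1 and 17.7 CPM in ND (-0.44 ± 0.10, adjusted p = 0.000982). In both, every RD library lay below every ND library. Its n_ZFP_a_Rpl IP levels were 8.27, 7.38 and 7.41 CPM in RD, against 9.40, 9.44, 9.12 and 10.3 CPM in ND (-0.31 ± 0.09, adjusted p = 0.00906), and in the MG IP it was not called (-0.07 ± 0.13).

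Ndufs3 (chromosome 2, 90894627 to 90904721) is a core subunit of the arm that carries electrons. Its hSyn IP levels were 37.0, 35.6 and 35.6 CPM in RD, against 43.0, 49.5, 50.6, 47.3 and 48.6 CPM in ND (-0.41 ± 0.07, adjusted p = 8.38e-05). The n_ZFP_a_Rpl IP had 39.9, 42.0 and 42.2 CPM in RD, against 49.0, 49.5, 47.4 and 49.1 CPM in ND (-0.24 ± 0.04, adjusted p = 0.000514). Neither pair of groups overlapped. Ndufs4, whose loss causes a Leigh-like disease in mice, had 59.6, 61.5 and 58.7 CPM in RD of the hSyn IP, against 74.5, 71.5, 75.7, 68.9 and 72.7 CPM in ND (-0.28 ± 0.04, adjusted p = 4.01e-05). It fell by 0.21 ± 0.05 in the n_ZFP_n_Rpl IP (adjusted p = 0.00271) and by 0.13 ± 0.05 in the n_ZFP_a_Rpl IP (adjusted p = 0.0392, and above 0.05 in 8 of 20 alternatives, up to 0.14). Ndufs4 in the MG IP had 47.4 to 55.2 CPM in RD, against 53.6 to 55.5 CPM in ND, with no call. Ndufs1, the largest core subunit, was called in no IP. Ndufv1 was higher in the MG IP, with 194, 198, 192 and 213 CPM in RD, against 176, 173, 166 and 166 CPM in ND (0.23 ± 0.06, adjusted p = 0.0089), and was not called in the other IPs. A few complex I members rose in neurons, among them Ndufc2, with 52.2, 48.0 and 61.3 CPM in RD of the hSyn IP, against 40.2 to 43.9 CPM in ND (0.36 ± 0.08, adjusted p = 0.000909).

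Complex III members were lower in RD for 4 of 8 in the n_ZFP_a_Rpl IP (Uqcr11, Uqcrq, Uqcr10 and Uqcrc1), against 24.7% of all genes. The Uqcrc1 call ended in 11 of 20 alternatives (adjusted p up to 0.221). Uqcr11 (chromosome 10, 80402997 to 80406821) had 44.3, 49.97 and 50.96 CPM in RD of the hSyn IP, against 66.2, 60.1, 54.2, 63.3 and 64.3 CPM in ND (-0.35 ± 0.07, adjusted p = 0.000475). Its n_ZFP_n_Rpl IP levels were 72.9, 67.1, 74.1 and 69.8 CPM in RD, against 85.3, 88.4, 97.1 and 84.8 CPM in ND (-0.32 ± 0.07, adjusted p = 0.00109). Levels in the n_ZFP_a_Rpl IP were 62.8, 59.5 and 61.1 CPM in RD, against 69.7, 69.0, 71.1 and 72.4 CPM in ND (-0.21 ± 0.04, adjusted p = 0.000582). The RD libraries lay below all ND libraries in each. In the MG IP it was not called (-0.12), and in the Inputs it fell by 0.28 in n_ZFP_a_Rpl (adjusted p = 0.000109), 0.16 in hSyn (adjusted p = 0.0354) and 0.16 in n_ZFP_n_Rpl (adjusted p = 0.017). Uqcrfs1 was higher in the n_ZFP_n_Rpl IP, where it had 105, 109, 106 and 107 CPM in RD, against 105, 89.1, 100 and 93.8 CPM in ND (0.13 ± 0.05, adjusted p = 0.0339), and that call ended in 6 of 21 alternatives (adjusted p up to 0.119). MG IP levels were 104.5, 103.8, 103.2 and 106.3 CPM in RD, against 90.55, 90.28, 91.71 and 91.75 CPM in ND, without overlap and just short of a call (0.20 ± 0.07, adjusted p = 0.051). It was also higher in hSyn Input (0.35 ± 0.07, adjusted p = 0.00118) and n_ZFP_n_Rpl Input (0.19 ± 0.05, adjusted p = 0.00318).

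**Figure D4:**
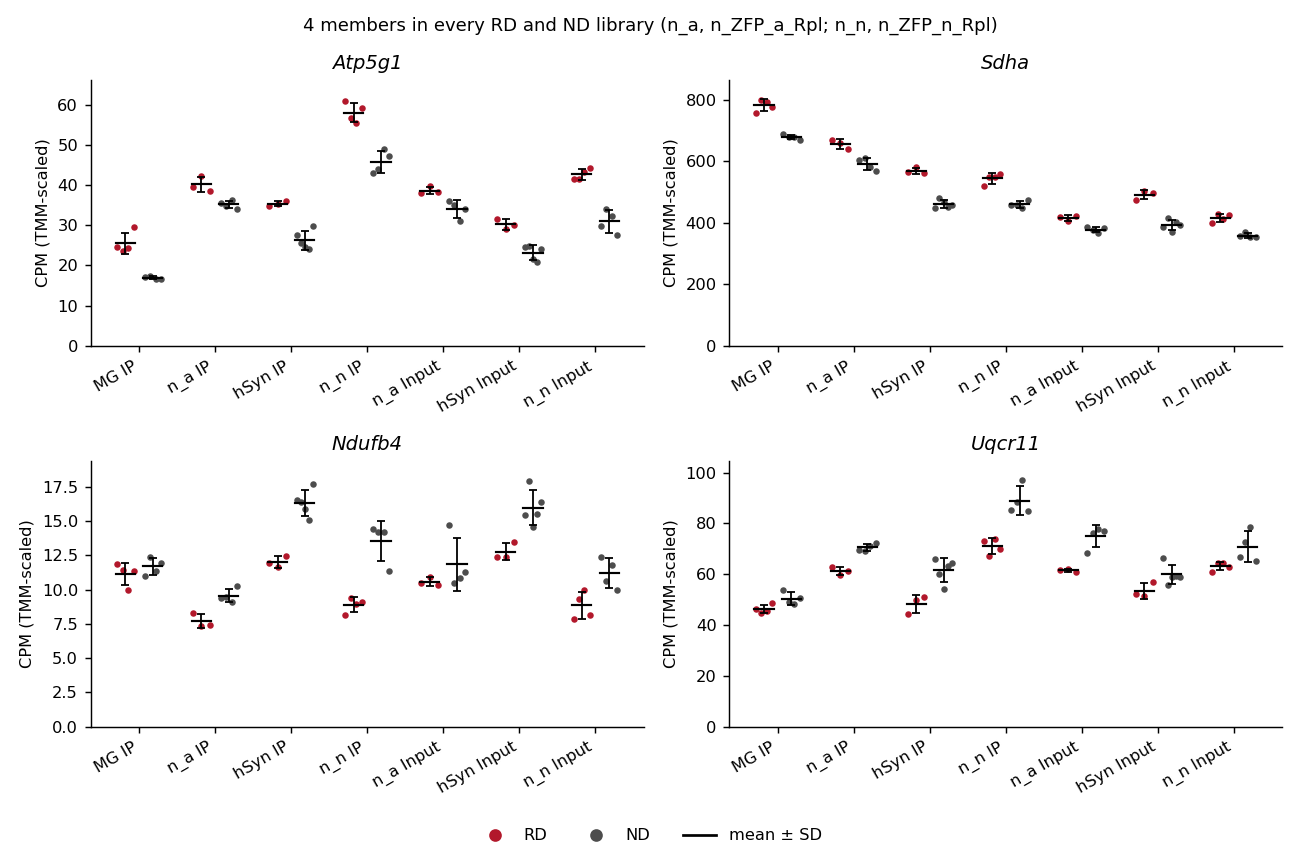
Level (CPM, vertical) of Atp5g1, Sdha, Ndufb4 and Uqcr11 in each RD and ND library of the 4 IPs and of the Inputs. Each library is 1 point, with the group mean and SD. RD lies above ND for Atp5g1 and Sdha in all 4 IPs, and below ND for Ndufb4 and Uqcr11 in the hSyn, n_ZFP_n_Rpl and n_ZFP_a_Rpl IPs.

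Complex IV members with calls were lower in the neuron IPs and in the n_ZFP_a_Rpl IP, with none higher. They were 6 of 14 in hSyn, 4 of 14 in n_ZFP_n_Rpl and 4 of 15 in n_ZFP_a_Rpl. Over all genes 25.5%, 26.2% and 24.7% were lower in these IPs, and 25.4%, 25.2% and 20.6% higher. The n_ZFP counts were thus near the lower shares of all genes. The called hSyn members included Cox6a2, Cox6b2, Cox7a1 and Cox7b2, with means of 2.20, 2.02, 0.789 and 0.414 CPM. In MG 1 of 15 was higher and 1 lower, both under 1 CPM. Cox8a, the common isoform of subunit VIII, had 155, 187 and 180 CPM in RD of the hSyn IP, against 189 to 209 CPM in ND (-0.19 ± 0.06, adjusted p = 0.00804). In n_ZFP_a_Rpl IP libraries it had 166, 181 and 176 CPM in RD, against 188 to 204 CPM in ND (-0.18 ± 0.05, adjusted p = 0.00704). The RD libraries were below ND in both. The Cox8a call in hSyn ended in 2 of 21 alternatives (adjusted p up to 0.0745). Cox5a fell in the n_ZFP_a_Rpl IP (-0.15 ± 0.05, adjusted p = 0.0348, and above 0.05 in 6 of 20 alternatives, up to 0.133), and Cox7a2 fell in the hSyn IP (-0.22 ± 0.06, adjusted p = 0.00917) and in the n_ZFP_n_Rpl IP (-0.15 ± 0.05, adjusted p = 0.018, and up to 0.0644 in 2 of 21 alternatives). Cox5b, Cox6a1 and Cox6b1 were called in no IP.

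The largest differences were in low tissue isoforms. Cox6a2 (chromosome 7, 128205435 to 128206366), the muscle-type isoform of subunit VIa, had 0.741, 1.33, 1.62 and 1.24 CPM in RD of the n_ZFP_n_Rpl IP, against 3.40, 2.44, 2.76 and 3.46 CPM in ND (-1.29 ± 0.19, adjusted p = 3.85e-05). Its n_ZFP_a_Rpl IP levels were 1.65, 1.19 and 1.85 CPM in RD, against 3.01, 3.22, 3.54 and 3.29 CPM in ND (-1.06 ± 0.16, adjusted p = 4.89e-05). The hSyn IP had 1.66, 1.89 and 1.80 CPM in RD, against 3.07, 2.61, 2.18, 2.29 and 2.86 CPM in ND (-0.54 ± 0.17, adjusted p = 0.0147, and 0.0602 without RD library 1). The groups did not overlap in any of these 3. In the MG IP 1 RD library stood apart, with 4.53 CPM against 1.85 to 2.21 CPM in the other RD libraries and 2.98 to 4.04 CPM in ND (-0.45 ± 0.23, adjusted p = 0.157). Without that library the adjusted p was 0.00144. In the Inputs the difference was -0.998 ± 0.229 in n_ZFP_n_Rpl (adjusted p = 0.00172), -0.53 ± 0.16 in n_ZFP_a_Rpl (adjusted p = 0.0111, and 0.0748 without RD 2) and -0.54 ± 0.22 in hSyn (adjusted p = 0.0583). The common isoform Cox6a1 had 154 to 166 CPM in RD and 145 to 164 CPM in ND of the n_ZFP_n_Rpl IP, without a call. In n_ZFP_n_Rpl Input, where Cox6a2 fell, Cox6a1 was higher in RD, with 164 to 177 CPM, against 124 to 144 CPM in ND. That call held in all 21 alternatives (adjusted p up to 0.00118).

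Cox6b2 (chromosome 7, 4751792 to 4753094) was lower in RD in the neuron IPs. Levels in the hSyn IP were 1.02, 0.646 and 1.27 CPM in RD, against 2.30, 2.11, 1.88, 2.83 and 2.67 CPM in ND (-1.27 ± 0.28, adjusted p = 0.00102), with no overlap. The n_ZFP_n_Rpl IP had 1.08, 0.435, 0.753 and 0.737 CPM in RD, against 0.660, 1.03, 1.55 and 2.61 CPM in ND (-0.96 ± 0.37, adjusted p = 0.0382). Those groups overlapped, and the adjusted p was 0.204 without ND library 4 and 0.106 without RD library 2. In the astrocyte IPs, where the gene was highest, it was not called: it had 7.85, 9.10 and 8.71 CPM in RD of the n_ZFP_a_Rpl IP, against 11.2, 11.3, 11.7 and 7.999 CPM in ND (-0.30 ± 0.14, adjusted p = 0.0866). Without ND library 4 that adjusted p was 0.0111. In MG IP libraries it had 5.56 to 9.37 CPM in RD, against 9.16 to 14.4 CPM in ND (-0.58 ± 0.23, adjusted p = 0.0628).

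The difference between cell types was tested directly, as RD minus ND in the neuron IPs less RD minus ND in the astrocyte IPs. Each cell type came from sets of its own, so set and cell type cannot be told apart. The astrocyte IPs averaged here differed, with 8 members higher and 1 lower in MG and 4 and 26 in n_ZFP_a_Rpl. Of 89 members 1 was higher and 3 were lower (4.49% called, against 20.7% of all genes, 11.5% higher and 9.15% lower). The lower ones were Ndufa10 (-0.20 ± 0.04, adjusted p = 0.000253), Ndufb4 (-0.32 ± 0.10, adjusted p = 0.0165) and Ndufs4 (adjusted p = 0.0375), and the higher one was Ndufv3 (0.18 ± 0.06, adjusted p = 0.0265). The Ndufv3 call ended in 7 of 67 alternatives (adjusted p up to 0.256) and that of Ndufs4 in 13 (up to 0.0703). Ndufb4 was itself called lower in the n_ZFP_a_Rpl astrocyte IP and was not called in MG. Cox6a2 and Atp5g1 were not among the called members of this test. The count was 8 without MG RZ library 1, and 10 by DESeq2. Without any 1 of the hSyn or n_ZFP_a_Rpl RD libraries, 0 members were higher and 9 to 13 lower.

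The third comparison set R6/2 with the ZFP against R6/2 with Delta. It shares the RD libraries with the comparison above, so values are given side by side and no overlap between them is reported. In the n_ZFP_a_Rpl IP 15 of 88 members were higher in RZ and 1 lower (18.2% called, against 33.8% of all genes, 19.1% higher and 14.7% lower), and in the n_ZFP_n_Rpl IP 5 were higher and 5 lower (11.4%, against 17.4%, 9.47% higher and 7.95% lower). In the hSyn IP 0 members passed edgeR's test or DESeq2's (0.0391% of all genes passed edgeR's, 0.00652% higher and 0.0326% lower), and 6 had an unadjusted p under 0.05. In the MG IP 0 passed edgeR's test (0.0782% of all genes did, 0.013% higher and 0.0652% lower), 36 had an unadjusted p under 0.05, and DESeq2 called 8 higher and 2 lower. Without RZ library 1, 1 of the 2 ZFP libraries with a low total, 29 were higher and 9 lower in MG.

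In the n_ZFP_a_Rpl IP Cox6a2 had 3.90, 4.04, 4.23 and 3.14 CPM in RZ, against 1.65, 1.19 and 1.85 CPM in RD (1.29 ± 0.15, adjusted p = 1.26e-05). Levels in the n_ZFP_n_Rpl IP were 3.13, 3.24, 2.93 and 2.55 CPM in RZ, against 0.741, 1.33, 1.62 and 1.24 CPM in RD (1.26 ± 0.19, adjusted p = 0.000418). The RZ libraries lay above all RD libraries in both. In hSyn IP libraries it had 1.61, 1.53, 1.98 and 2.17 CPM in RZ, against 1.66, 1.89 and 1.80 CPM in RD (0.03, adjusted p = 0.985), so the groups overlapped. In n_ZFP_n_Rpl Input it had 2.26, 2.53, 2.33 and 2.26 CPM in RZ, against 0.978, 0.928, 1.85 and 1.27 CPM in RD (0.91 ± 0.23, adjusted p = 0.035), the 1 member called there (3.32% of all genes, 2.49% higher and 0.828% lower), and this call was lost without any 1 of 7 RZ or RD libraries. Cox6b2 rose in the n_ZFP_n_Rpl IP, with 2.27, 1.65, 1.95 and 1.33 CPM in RZ, against 1.08, 0.435, 0.753 and 0.737 CPM in RD (1.26 ± 0.36, adjusted p = 0.0259). That adjusted p lay between 0.056 and 0.0766 without RD library 2, 3 or 4 or RZ library 1 or 3.

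**Figure D5:**
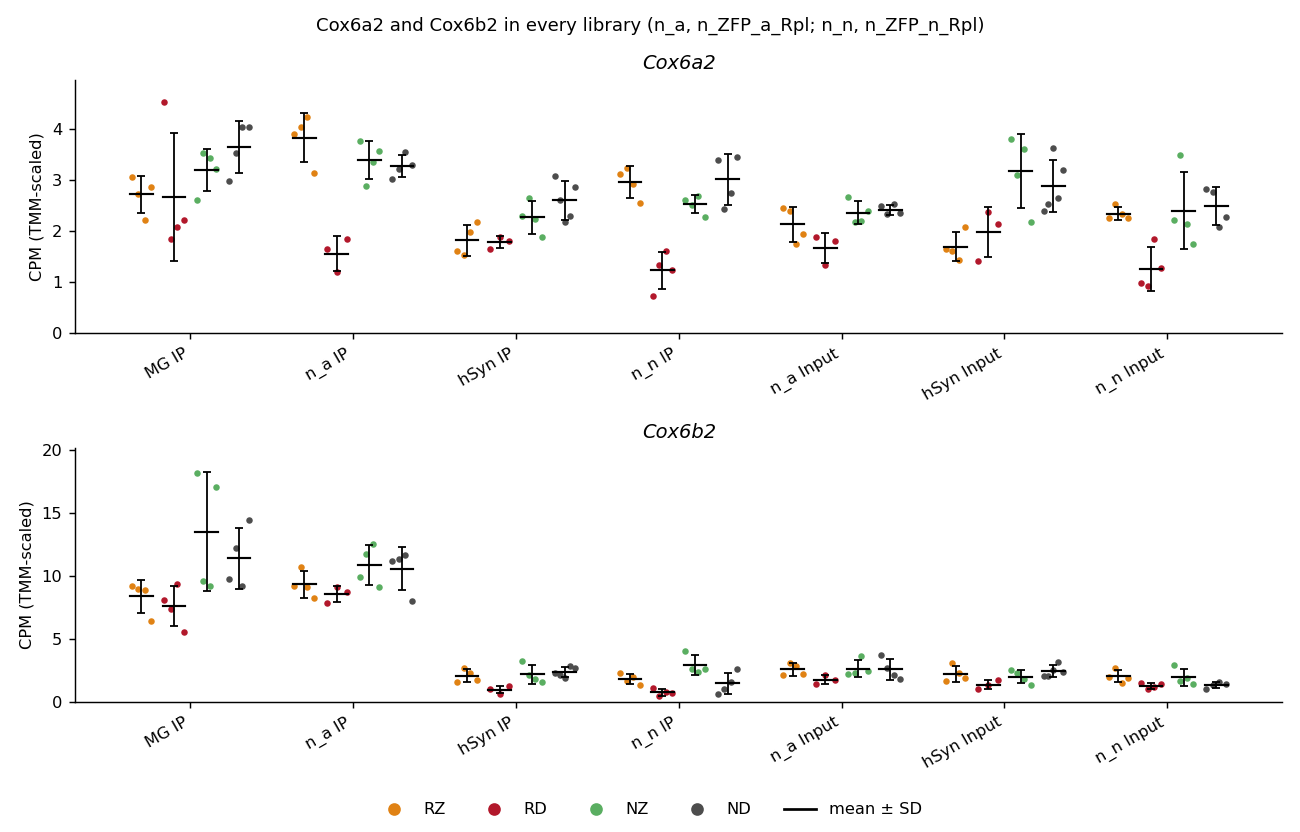
Level (CPM, vertical) of Cox6a2 and Cox6b2 in each library of the 4 IPs and of the Inputs under RZ, RD, NZ and ND. Each library is 1 point, with the group mean and SD. Cox6a2 in RZ lies above RD in the n_ZFP_a_Rpl and n_ZFP_n_Rpl IPs and overlaps RD in the hSyn IP. Cox6b2 is highest in the astrocyte IPs.

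Complex I members were higher in RZ for 7 of 37 in the n_ZFP_a_Rpl IP, with 0 lower. In the n_ZFP_n_Rpl IP 3 of 38 were higher and 4 lower. Over all genes 19.1% were higher and 14.7% lower in the first, and 9.47% and 7.95% in the second. The higher counts were thus near or under the shares of all genes. Ndufb10, an accessory subunit of the membrane arm, had 84.3, 80.9, 82.2 and 81.2 CPM in RZ of the n_ZFP_a_Rpl IP, against 74.7, 71.4 and 67.8 CPM in RD (0.20 ± 0.04, adjusted p = 0.000999). In n_ZFP_n_Rpl IP libraries it had 85.3, 87.1, 88.4 and 87.6 CPM in RZ, against 79.7, 76.1, 74.3 and 72.0 CPM in RD (0.21 ± 0.04, adjusted p = 0.00282). The groups were apart in both. Ndufb4 had 10.5, 11.7, 11.8 and 11.3 CPM in RZ of the n_ZFP_n_Rpl IP, against 8.15, 9.40, 8.93 and 9.10 CPM in RD (0.35 ± 0.08, adjusted p = 0.00716). Ndufaf5 (0.27 ± 0.08, adjusted p = 0.011) and Ndufaf3 (0.21 ± 0.04, adjusted p = 0.000977), both assembly factors, and Uqcr11 (0.17 ± 0.04, adjusted p = 0.00337) rose in the n_ZFP_a_Rpl IP. Ndufaf3 had 29.6, 30.8, 29.0 and 28.6 CPM in RZ, against 24.4, 26.3 and 25.7 CPM in RD. Ndufaf1 fell there by 0.22 ± 0.07 (adjusted p = 0.0214, and above 0.05 without RD 1, RD 3 or RZ 1). In the n_ZFP_n_Rpl IP the lower members were Ndufa3 (-0.23 ± 0.07, adjusted p = 0.0383, and up to 0.127 in 5 of 21 alternatives), Uqcrfs1 (-0.19 ± 0.05, adjusted p = 0.016), Ndufc2 (-0.18 ± 0.04, adjusted p = 0.00883), Ndufb11 and Ndufa8. Ndufc2 had 71.7, 70.4, 74.2 and 72.99 CPM in RZ, against 76.5, 84.1, 83.0 and 83.7 CPM in RD, with no overlap.

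These counts depended on single libraries. In the n_ZFP_a_Rpl IP 9 members were called without RD library 1 and 10 without RZ library 1, and in the n_ZFP_n_Rpl IP 5 or 6 without RD library 2 or 4 or RZ library 2 or 3. Cell markers moved in the same comparison. Striatal projection neuron markers summed to 8077 to 9265 CPM in RZ and 3064 to 4115 CPM in RD in the n_ZFP_a_Rpl IP, and to 6115 to 9662 CPM in RZ and 4365 to 5646 CPM in RD in the n_ZFP_n_Rpl IP. Astrocyte markers were lower in RZ for 15 of 16 in the n_ZFP_a_Rpl IP, against 14.7% of all genes. They summed to 15110 to 16304 CPM in RZ and 18407 to 19927 CPM in RD. Their part in the members' differences was not tested. In n_ZFP_a_Rpl Input 2 members were called, both lower in RZ (16.1% of all genes called, 11.1% higher and 5.03% lower): Ndufb6 (-0.19 ± 0.06, adjusted p = 0.0367) and Ndufc2 (-0.18 ± 0.06, adjusted p = 0.0426). Without 1 library (RD 1, RZ 2 or RZ 4) 0 were called there. In hSyn Input edgeR and DESeq2 called 0 members (0% of all genes by edgeR), and 4 had an unadjusted p under 0.05.

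The fourth comparison set the ZFP against Delta in NCAR, which shares the ND libraries with the R6/2 comparison. In the n_ZFP_n_Rpl IP 0 members were higher and 17 lower in NZ (19.3% called, against 7.36% of all genes, 2.86% higher and 4.5% lower). The lower ones were spread over complexes I, III, IV and V. Among members of at least 5 CPM, Ndufa1 fell most (-0.36 ± 0.05, adjusted p = 0.00178), followed by Uqcr11, with 81.9, 70.9, 65.0 and 74.0 CPM in NZ, against 85.3, 88.4, 97.1 and 84.8 CPM in ND (-0.29 ± 0.07, adjusted p = 0.0228). Ndufa4 (-0.26 ± 0.05, adjusted p = 0.00996), Cox8a (-0.26 ± 0.07, adjusted p = 0.0263), Cox6b1 (-0.19 ± 0.06, adjusted p = 0.0471), Atp5g3 (-0.21 ± 0.05, adjusted p = 0.0258) and Uqcrc1 (-0.17 ± 0.04, adjusted p = 0.0279) fell too. This count was fragile: it was 1 when the fit held the NZ and ND libraries alone, and 5, 4, 5 and 8 without ND 3, NZ 2, NZ 3 and NZ 4. Projection neuron markers summed to 8671 to 11644 CPM in NZ and 11945 to 17947 CPM in ND, and their part was not tested.

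In the n_ZFP_a_Rpl IP 4 members were lower in NZ and 0 higher (4.55%, against 2.07% of all genes, 1.2% higher and 0.872% lower), namely Ndufb3, Atp5g3, Uqcrfs1 and Ndufc2, by 0.18 to 0.24 on the log2 scale. The count was 1 without ND 2, ND 3 or NZ 1, and 0 without NZ 4. In the hSyn IP edgeR and DESeq2 called 0 (0.0261% of all genes by edgeR, 0% higher and 0.0261% lower), and 3 had an unadjusted p under 0.05. In the MG IP 21 members were higher and 1 lower (24.7%, against 7.05% of all genes, 3.68% higher and 3.36% lower), led among members of at least 5 CPM by Atp5e (0.81 ± 0.18, adjusted p = 0.0277) and Ndufa2 (0.67 ± 0.16, adjusted p = 0.0305). The NZ libraries 3, 4 and 5 are the high-total ones of this set. With the library total above 58 M as a block, a limit chosen after the data were seen, 0 members were called, and the count was 0 to 5 without 1 of ND 1 to 4, NZ 3 or NZ 5. It was 38 without NZ 2 and 35 without RZ 1.

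Whether the ZFP difference differed between genotypes was tested as an interaction, the RZ minus RD difference less that of NZ minus ND. In the n_ZFP_a_Rpl IP 16 members were positive and 0 negative (18.2%, against 16.5% of all genes, 11.4% positive and 5.07% negative), and in the n_ZFP_n_Rpl IP 9 were positive and 0 negative (10.2%, against 13.1%, 8.47% positive and 4.68% negative). In the MG IP edgeR called 0 (0% of all genes; 3 had an unadjusted p under 0.05, and DESeq2 called 1), and in the hSyn IP edgeR and DESeq2 called 0 (0% of all genes by edgeR; 2 had an unadjusted p under 0.05). Among the called members Cox6a2 had the largest value in both n_ZFP sets, 1.24 ± 0.20 in n_ZFP_a_Rpl (adjusted p = 0.000781) and 1.52 ± 0.26 in n_ZFP_n_Rpl (adjusted p = 0.00176). Its NZ levels were 3.76, 2.89, 3.34 and 3.56 CPM in n_ZFP_a_Rpl, against 3.01 to 3.54 CPM in ND, so NZ and ND overlapped. Uqcr11 was also positive in both, at 0.27 ± 0.05 (adjusted p = 0.00285) and 0.41 ± 0.10 (adjusted p = 0.0135), as were Ndufb10 (0.18 and 0.31 ± 0.06) and Atp5d (0.20 and 0.29 ± 0.07). For Uqcr11 in n_ZFP_n_Rpl the value combines an RZ minus RD of 0.12 ± 0.07, which was not called, with an NZ minus ND of -0.29 ± 0.07. The count in n_ZFP_a_Rpl was 5 to 10 without 1 of RD 1, RD 3, RZ 1, NZ 1, NZ 4, ND 3 or ND 4, and that in n_ZFP_n_Rpl was 5 without RD 4 or NZ 4.

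Genes that serve the same complexes but lie outside the rule were read from lists of known roles, given by counts in the MG, hSyn, n_ZFP_a_Rpl and n_ZFP_n_Rpl IPs in that order for RD against ND. The shares over all genes in the same IPs were 17.4%, 25.4%, 20.6% and 25.2% higher and 16.2%, 25.5%, 24.7% and 26.2% lower, and many of the counts below lie near or under them. Complex III assembly genes were lower for 1, 3, 3 and 4 of 5, with none higher, and medians of -0.05, -0.31, -0.34 and -0.33. Lyrm7, which guards the Rieske protein before insertion, fell by 1.34, 1.24 and 1.40 in hSyn, n_ZFP_a_Rpl and n_ZFP_n_Rpl and was not called in MG (0.05). Bcs1l, which inserts that protein, fell by 0.31, 0.34 and 0.33 in the same IPs, while Ttc19 fell in all 4, by 0.34, 0.56, 0.44 and 0.49. Complex I assembly genes outside the rule were higher for 4, 4, 1 and 5 of 9 and lower for 0, 0, 0 and 1. Acad9, a partner of Ndufaf1, rose by 0.31, 0.43, 0.24 and 0.35.

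Complex IV assembly genes were mixed, with 4, 7, 2 and 6 of 20 higher and 2, 2, 5 and 1 lower. Cox16 rose in all 4 IPs (0.42, 0.26, 0.43 and 0.60), while Cox17, a copper chaperone, fell in hSyn, n_ZFP_a_Rpl and n_ZFP_n_Rpl (by 0.34, 0.26 and 0.27). Of 16 tricarboxylic acid cycle genes, 2, 6, 4 and 3 were higher and 1, 4, 3 and 5 lower. Ogdh, of the 2-oxoglutarate dehydrogenase complex, fell in all 4 (by 0.18, 0.31, 0.29 and 0.36), and Idh3a rose in hSyn, n_ZFP_a_Rpl and n_ZFP_n_Rpl (0.30, 0.12 and 0.16). Of 15 biogenesis regulators, 0, 1, 1 and 2 were higher and 1, 6, 6 and 4 lower. Ppargc1b, a coactivator of these genes, fell in all 4 (by 1.15, 0.55, 0.78 and 0.65), and Esrra, which encodes ERRA, fell in hSyn, n_ZFP_a_Rpl and n_ZFP_n_Rpl (by 0.50, 0.35 and 0.33). Ppargc1a fell by 0.21 in hSyn and 0.24 in n_ZFP_a_Rpl. Of 77 mitochondrial ribosomal protein genes, 12, 8, 3 and 16 were higher and 1, 9, 5 and 8 lower.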

How the data were processed

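The authors deposited 1 table of whole-number read counts per gene symbol for 110 libraries made with a TruSeq kit, per the labels' protocols. Reads were processed with STAR and HTSeq on mm10, per the submitters' processing notes, and their versions, options and strand handling are not stated in the labels or notes. Of 24060 gene rows, 4 with a repeated symbol were left out. Within each set and fraction, counts were filtered (filterByExpr, minimum count 10, minimum total 15), scaled by TMM and fitted for the 4 conditions with edgeR 4.0.16 (robust quasi-likelihood test, R 4.3.3), with Benjamini-Hochberg adjustment over all genes at 0.05. IP was set against Input, and neurons against astrocytes, in joint models. The code was tested on simulated counts. All 90 members matched RefSeq genes, 87 by symbol and 3 by synonym.

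The members and gene lists were chosen with earlier results of these data known. The text names a fixed list of subunits and isoforms, and the called members of at least 5 CPM with the highest and lowest differences in each comparison (3 each for both R6/2 contrasts of the IPs and for IP against Input, 2 otherwise); other members were named after their values were seen. Alternatives were DESeq2 1.42.0, RLE scaling, no filter, the compared groups alone, the replicate number as a block, ND libraries alone for IP against Input, and leaving out each library. For the MG IP, 3 alternatives were added after the data were seen. Same-numbered IP and Input libraries of the n_ZFP sets deviated together in every pair (r 0.44 to 0.72 over 15 pairs in n_ZFP_a_Rpl, 0.55 to 0.82 over 16 in n_ZFP_n_Rpl), as did RD and ND of the n_ZFP_n_Rpl IP (0.20 to 0.39 over 4 pairs). On that basis, which comes from the data and not from the labels, these were read as pairs. Same-numbered RD and ND libraries of n_ZFP_n_Rpl Input did not deviate together in every pair (r -0.03 to 0.16 over 4 pairs). The reading of RD and ND as pairs is thus uncertain. The main fits and their p-values did not use the pairing. It enters only the alternative with the replicate number as a block. The 14 hSyn pairs of IP and Input (r -0.28 to 0.80) were not read as pairs.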

Additional observations from a re-analysis of the deposited data

Results flagged for a closer look

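Single libraries stood apart from the rest of their group in 15 of 216 groups of 4 or more, and chance alone sets about 1 in 20 groups apart. The groups reuse the same libraries for several members, so they are not independent, and the 2 shares were not compared by a test. In the MG IP, Atp5g1 had 29.4 CPM in RD 4 (23.6 to 24.6 in the other RD libraries) and 23.7 CPM in RZ 1 (30.7 to 31.6), Uqcr11 had 46.9 CPM in RZ 1 (58.4 to 59.8) and Ndufb4 had 13.5 CPM in NZ 2 (8.79 to 9.33). Also there, Cox6a2 had 4.53 CPM in RD 1 (1.85 to 2.21) and Cox6b2 had 6.404 CPM in RZ 4 (8.90 to 9.17). In the n_ZFP_n_Rpl IP, Atp5g1 had 46.5 CPM in NZ 1 (38.5 to 39.2), Ndufb4 had 11.3 CPM in ND 4 (14.2 to 14.4), Cox6b2 had 4.06 CPM in NZ 1 (2.34 to 2.62), and the 90 members summed to 10244 CPM in NZ 1 (9654 to 9667). In n_ZFP_n_Rpl Input, Sdha had 418 CPM in RZ 4 (399 to 402) and 352 CPM in NZ 3 (364 to 366). In the n_ZFP_a_Rpl IP, Cox6b2 had 7.999 CPM in ND 4 (11.2 to 11.7) and Ndufaf1 had 16.3 CPM in NZ 2 (17.8 to 18.0). In hSyn Input the 90 members summed to 7977 CPM in ND 4 (8684 to 8841).

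The ZFP difference differed between genotypes, by the interaction term, for 16 members in the n_ZFP_a_Rpl IP (18.2%, against 16.5% of all genes, and 5 to 19 members with 1 library left out) and 9 in the n_ZFP_n_Rpl IP (10.2%, against 13.1%, and 5 to 12 members). Values in n_ZFP_a_Rpl were 1.24 for Cox6a2, 0.34 ± 0.10 for Ndufaf5 (adjusted p = 0.0323, and up to 0.0923 in the 7 of 19 alternatives that ended the call) and 0.32 ± 0.07 for Ndufb3 (adjusted p = 0.00356). In n_ZFP_n_Rpl they were 1.52 for Cox6a2, 0.41 for Uqcr11 and 0.39 ± 0.11 for Ndufb4 (adjusted p = 0.033, and above 0.05 when any 1 of 10 of the 16 libraries was left out).

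Enrichment in IP differed between the neuron and astrocyte sets for 75 members, among them Ndufa1 (0.75), Cox6c (0.60), Atp5g1 (0.43), Sdha (-0.26), Sdhc (-0.26), Uqcrfs1 (-0.40) and Cox6b2 (-2.09). The RD against ND difference differed between neuron and astrocyte IPs for 4 members, among them Ndufa10 (-0.20), Ndufb4 (-0.32) and Ndufv3 (0.18).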

How the results depend on the processing

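Calls were counted again under each alternative, and counts below are members past the threshold. With MG RZ 1 and NZ 2 both left out, with the library total above 58 M as a block, and with only libraries under 58 M counts, the MG counts were 19, 17 and 14 for RD against ND (9 in the report), 46, 0 and 0 for RZ against RD (0), and 50, 0 and 4 for NZ against ND (22). Over all genes the shares called were 42.5%, 42.4% and 36.9%, then 21.8%, 0.00652% and 0%, then 23.2%, 1.51% and 9.08%. With both libraries left out, 17 members were higher and 2 lower for RD against ND, 33 and 13 for RZ against RD, and 38 and 12 for NZ against ND. In the last of these fits the RZ and NZ groups held 1 library each, which is assumed to vary like the others, and the MG interaction then had 1 call (0). DESeq2 gave 10 for RZ against RD in MG (0), 1 for the MG interaction (0) and 10 for the neuron less astrocyte difference of RD against ND (4). Fitting only the compared groups gave 1 for NZ against ND in the n_ZFP_a_Rpl IP (4) and 1 in the n_ZFP_n_Rpl IP (17). RLE factors gave 1 for RZ against RD in n_ZFP_a_Rpl Input (2), no filter gave 10 for the n_ZFP_a_Rpl interaction (16), and ND libraries alone gave 49 for IP against Input, neuron less astrocyte (75). There Cox6a1 turned sign in hSyn, to -0.0081 (0.05 or less from 0 in size, not called). The causes were not tested.

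With the replicate number as a block, NZ against ND in MG had 0 calls (22) and RZ against RD in n_ZFP_n_Rpl Input had 0 (1), where the numbers did not pair the libraries; the block moved no other count by over 1.5 times. Where the libraries were read as pairs, the block added Cox5b in IP against Input of n_ZFP_a_Rpl (adjusted p = 0.000143).

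Leaving out 1 library at a time, counts ranged for RD against ND from 6 to 14 in MG, 23 to 31 in hSyn IP, 22 to 31 in n_ZFP_a_Rpl IP, 21 to 27 in n_ZFP_n_Rpl IP, and 13 to 28, 11 to 19 and 21 to 36 in the hSyn, n_ZFP_a_Rpl and n_ZFP_n_Rpl Inputs. For RZ against RD they ranged from 0 to 38 in MG, 9 to 17 in n_ZFP_a_Rpl IP, 5 to 13 in n_ZFP_n_Rpl IP, 0 to 3 in n_ZFP_a_Rpl Input and 0 to 1 in n_ZFP_n_Rpl Input. For NZ against ND they ranged from 0 to 38 in MG, 0 to 6 in n_ZFP_a_Rpl and 4 to 22 in n_ZFP_n_Rpl, and for the interaction from 5 to 19 in n_ZFP_a_Rpl and 5 to 12 in n_ZFP_n_Rpl. For IP against Input they ranged from 76 to 79 in hSyn, 77 to 81 in n_ZFP_a_Rpl, 83 to 84 in n_ZFP_n_Rpl and 73 to 76 for neuron less astrocyte, and for the neuron less astrocyte difference of RD against ND from 3 to 13. Depth limits the low isoforms: at 26.4 to 72.6 M counts per library, Cox6a2 had 31 to 273 counts and Cox6b2 18 to 1073. The RD against ND calls of Cox6a2 in the n_ZFP IPs, of Uqcr11 and Ndufs3 in the hSyn and both n_ZFP IPs and of Ndufaf1 in all 4 IPs held under every alternative run.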
